A study of Homo sapiens with 3 samples.

Results

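The genes described here encode corepressors that act with RBPJ and the subunits of the LSD histone demethylase complexes. They are SPEN, NCOR1, CTBP1 and TLE1 among the corepressors, the demethylases KDM1A and KDM1B, and their partners RCOR1, RCOR3 and PHF21A. These 9 genes, of 19756 protein-coding genes on chromosomes 1 to 22 and X, were chosen by name, and every peak with its summit within 50 kb of one of their transcription start sites (TSS) was taken. That gave 13 of the 2926 RBPJ peaks and 5 of the 444 L3MBTL3 peaks. The peaks come from chromatin immunoprecipitation followed by sequencing (ChIP-seq) in MDA-MB-231, a human breast cancer cell line. RBPJ (also named CBF1 or RBPSUH) and L3MBTL3 were each precipitated in 1 library. A library of input DNA also belongs to the series and was not used here. The labels name no treatment, and they give each library 30 to 40 M aligned reads. Because neither antibody has a second library, no value below has a replicate error and no difference was tested, and the peak lists carry no read counts.

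RBPJ is the DNA-binding protein of the Notch pathway. Without the cleaved Notch receptor it recruits corepressors, and with it a coactivator complex forms at the same sites. SPEN (also called SHARP) binds RBPJ and brings in the NCOR corepressors with their histone deacetylases. CTBP1 and TLE1 are general corepressors without a DNA-binding domain, and TLE1 is best known as the partner of the HES repressors that Notch induces. KDM1A removes methyl groups from histone tails, RCOR1 holds it on nucleosomes, and RCOR3 and PHF21A are also found in KDM1A complexes. KDM1B is the related demethylase, which works without RCOR1. L3MBTL3 is a reader of methylated lysine, and the series addresses its place on chromatin together with RBPJ in the repression of Notch signaling by KDM1A. RBPJ or L3MBTL3 peaks here would place a protein that can repress at corepressor and demethylase genes, as a feedback loop would need. A peak does not tell the repressing from the activating form of RBPJ. Peaks show where an antibody enriched DNA. Expression was not measured in these files, so whether any of these genes responds to RBPJ or L3MBTL3 was not tested.

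The sequences below are stretches on which the results turn: those at SPEN, NCOR1, TLE1 and PHF21A, which hold an RBPJ word, and the L3MBTL3 peaks of KDM1B and CTBP1, which hold none. The words searched on both strands were CGTGGGAA and TGTGGGAA, the high-affinity RBPJ words, and their core TGGGAA, which both of them contain. All sequences are of the plus strand of hg19 (GRCh37 reference), 5′ to 3′, and capitals mark a word, so that TTCCCACG is CGTGGGAA on the minus strand. The SPEN stretch is chr1:16161484-16161617, from the start of the stronger L3MBTL3 peak past the end of the RBPJ peak. The NCOR1 stretch, within an untranslated exon, is chr17:16119149-16119178. The TLE1 stretch is the upstream RBPJ peak, chr9:84304751-84304892, and that of PHF21A the upstream RBPJ peak, chr11:46143109-46143164. The KDM1B stretch is chr6:18155510-18155559, the part of the L3MBTL3 peak that lies before the TSS, and that of CTBP1 is the whole L3MBTL3 peak, chr4:1242239-1242288.
SPEN: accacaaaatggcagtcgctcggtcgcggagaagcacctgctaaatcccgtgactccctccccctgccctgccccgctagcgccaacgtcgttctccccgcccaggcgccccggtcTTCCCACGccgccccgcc
NCOR1: ccttcctcaggCGTGGGAAaaggaaaaact
TLE1: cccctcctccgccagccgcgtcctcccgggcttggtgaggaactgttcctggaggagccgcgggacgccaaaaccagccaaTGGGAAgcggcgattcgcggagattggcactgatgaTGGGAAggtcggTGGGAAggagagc
PHF21A: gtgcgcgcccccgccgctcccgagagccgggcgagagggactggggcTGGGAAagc
KDM1B: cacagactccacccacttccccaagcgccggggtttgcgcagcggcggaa
CTBP1: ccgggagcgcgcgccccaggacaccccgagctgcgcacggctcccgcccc

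RBPJ was found near 7 of the 9 genes, L3MBTL3 near 4, and KDM1A, the demethylase the series is named for, had a peak of neither within 50 kb. The genes with an RBPJ summit within 50 kb of a TSS were SPEN, NCOR1, TLE1, KDM1B, RCOR1, RCOR3 and PHF21A, against 21.8% of all protein-coding genes. Those with an L3MBTL3 summit were SPEN, CTBP1, KDM1B and PHF21A, against 2.89%. SPEN, KDM1B and PHF21A had both proteins, against 1.76%. Only SPEN and KDM1B among the 9 had a shared peak, defined as an RBPJ peak that overlaps an L3MBTL3 peak by at least 1 bp, against 1.01%. That count was 1, KDM1B, with summits within 1 kb (0.516% of all genes) or with folds at or above the list median (0.521%). It was 0 with a -log10 q of at least 5 (0.197%). NCOR1, TLE1, RCOR1 and RCOR3 had RBPJ alone, and CTBP1 had L3MBTL3 alone. Since the 9 genes were picked with earlier results of these data known, these shares are a description of the genes and not independent evidence that such genes draw RBPJ.

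Most of these peaks lay at the start of the gene itself. An RBPJ summit was within 1 kb of a TSS of 6 of the 9 genes, against 8.90% of all protein-coding genes, and an L3MBTL3 summit within 1 kb of 3, against 1.37%. All 9 genes had a CpG-rich TSS (observed over expected CpG above 0.6 in 1 kb), as did 13842 of 19756 genes. Among genes with such a TSS the background shares were 12.4% for RBPJ and 1.96% for L3MBTL3. An RBPJ summit with a -log10 q of at least 5 was within 1 kb of NCOR1, KDM1B, RCOR1 and RCOR3, 4 of the 9, against 2.0% of all genes. Gene activity was not matched, since no expression was measured. The 9 genes have a median of 6 distinct TSS spread over a median of 59.6 kb, against 3 TSS over 0.581 kb for all genes, so their windows are wide. Per megabase of window, the 9 genes had 8.79 RBPJ and 3.38 L3MBTL3 summits, against 1.95 and 0.313 for the windows of all genes.

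**Figure D1:**
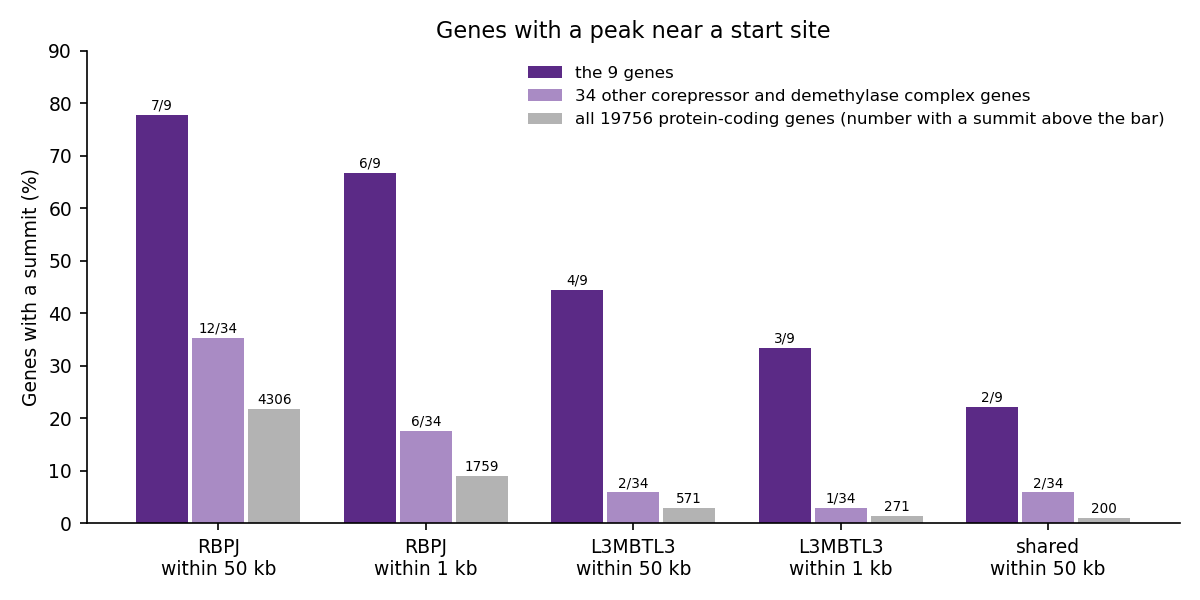
Percent of genes with a summit near any of their start sites (vertical axis), for the 9 genes, 34 other corepressor and demethylase complex genes and all 19756 protein-coding genes, with the number of genes above each bar (shared means an RBPJ peak overlapping an L3MBTL3 peak). The 9 genes reach 7 of 9 for RBPJ and 4 of 9 for L3MBTL3 within 50 kb, where all genes reach 21.8% and 2.89%. Both short lists were chosen with earlier results of these data known, and the 34 genes are not all subunits of the same complexes.

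The RBPJ peaks of the 9 genes ranged from the weak end of the list to its top few percent. Fold enrichment, the authors' value at the summit over local background, had a median of 5.29 (range 3.35 to 8.59) in the 13 peaks and 5.08 (2.09 to 21.3) in all 2926. Of the 13, 9 were at or above the median of the list. RCOR1, NCOR1 and KDM1B had the strong ones. Ranked by the strongest peak within 1 kb over the 1759 genes that had one, RCOR1 was 25, NCOR1 33, KDM1B 42 and RCOR3 146, whereas TLE1 was 830 and PHF21A 1003. The 5 L3MBTL3 peaks had a median fold of 5.92 (5.32 to 8.20), against 5.57 (2.87 to 14.5) in all 444, and the strongest, at SPEN, was number 13 of that list. Folds of the 2 lists come from different antibodies and were not compared with each other.

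**Figure D2:**
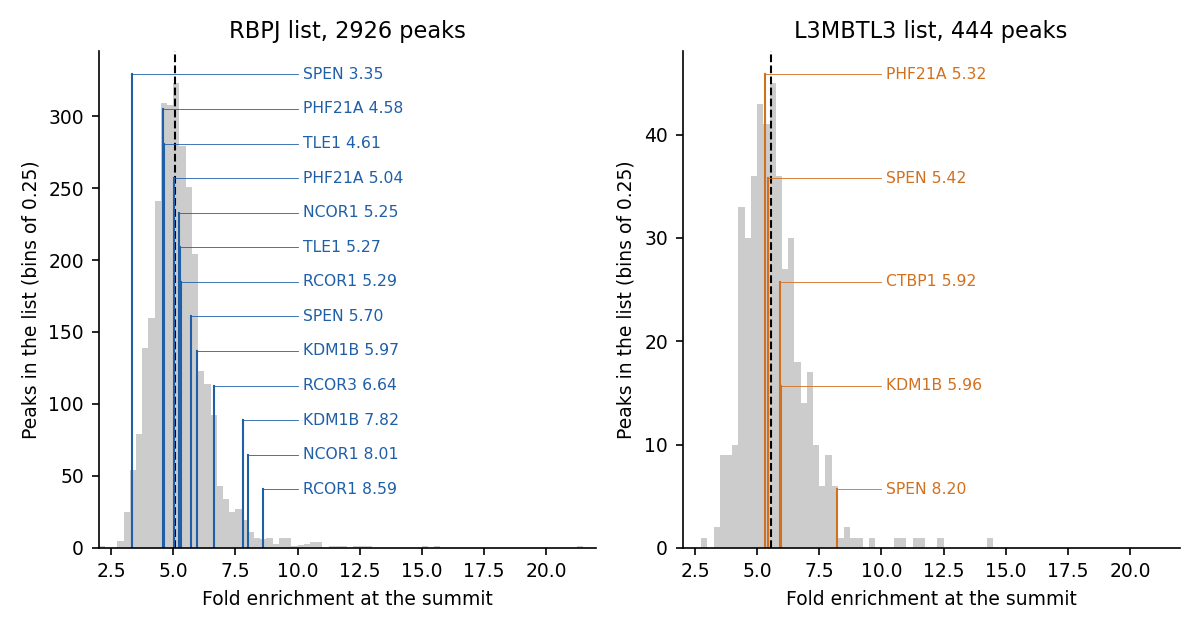
Number of peaks (vertical axis) by fold enrichment (horizontal axis) in the RBPJ list (left) and the L3MBTL3 list (right), with the median dashed and a coloured line for each peak within 50 kb of the 9 genes. RCOR1, NCOR1 and KDM1B sit in the upper tail of the RBPJ list between 7.82 and 8.59, and the SPEN peak at 8.20 is the 1 of the 5 that sits in the upper tail of the L3MBTL3 list.

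Of the corepressor genes, SPEN (ENSG00000065526, chr1:16162590-16266951, plus strand) had both proteins about 1 kb upstream of its first TSS. The RBPJ peak, chr1:16161377-16161577, was among the weakest of its list, with a fold of 3.35 (rank 2874 of 2926), a -log10 q of 1.44 and its summit 1013 bp upstream. The L3MBTL3 peak chr1:16161484-16161558, with its summit 1068 bp upstream, had a fold of 8.20 and a -log10 q of 9.29. A second L3MBTL3 peak, chr1:16161298-16161393, had a fold of 5.42 and a -log10 q of 2.72. So at SPEN the L3MBTL3 signal was strong in its list and the RBPJ signal weak in its own. The RBPJ peak overlapped both L3MBTL3 peaks, containing the stronger one whole and 17 bp of the other. The summits of RBPJ and of the stronger L3MBTL3 peak were 55 bp apart. The RBPJ summit was the last base of its peak, and CGTGGGAA on the minus strand lay 23 bp beyond it at chr1:16161600-16161607, outside all 3 peaks and shown in the SPEN line above. The canonical TSS of SPEN is a different one, and the RBPJ summit was 12625 bp upstream of it. All 3 peaks lay inside SPEN-AS1, a long non-coding RNA gene that starts 440 bp from a SPEN TSS and is transcribed the other way, and the RBPJ summit was 13065 bp from its nearest TSS. A further RBPJ peak of SPEN's window, chr1:16125701-16125769 (fold 5.70), was intergenic, 36.9 kb upstream, and closer to a TSS of UQCRHL (8433 bp).

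NCOR1 (ENSG00000141027, chr17:15932379-16121499, minus strand), the deacetylase-linked corepressor that SPEN recruits, had a strong RBPJ peak with a high-affinity word under it. The peak chr17:16118850-16119224 had a fold of 8.01 (rank 70 of 2926) and a -log10 q of 10.1. Its summit was in an untranslated exon, 52 bp downstream of the nearest TSS and 329 bp upstream of the canonical one. CGTGGGAA on the plus strand lay 10 bp from the summit at chr17:16119160-16119167. This was the 1 high-affinity word inside any of the 13 RBPJ peaks. No L3MBTL3 summit lay nearer than 1085 kb. The other RBPJ peak of the NCOR1 window, chr17:15903099-15903193 (fold 5.25), was outside the gene, beyond its 3′ end. Its summit was 39.7 kb from the most downstream NCOR1 TSS and 25 bp from a protein-coding TSS of TTC19, a mitochondrial protein gene.

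TLE1 and CTBP1 each had peaks of 1 protein. TLE1 (ENSG00000196781, chr9:84198598-84304462, minus strand) had RBPJ peaks at chr9:84304439-84304520, 3 bp upstream of its canonical TSS, and at chr9:84304751-84304892, 313 bp upstream. Their folds were 4.61 and 5.27, below and above the median of the list. The second summit was 61 bp from a TSS of TLE1-DT, a long non-coding RNA transcribed away from TLE1. Within 100 bp of it lay 3 copies of the core word, and the peak itself held 3, of which 2 were the same (capitals in the TLE1 line). The nearest L3MBTL3 summit was 1374 kb away. CTBP1 (ENSG00000159692, chr4:1205233-1244121, minus strand) had an L3MBTL3 peak at chr4:1242239-1242288 with a fold of 5.92 (rank 161 of 444) and a -log10 q of 3.75. That summit was in an intron, 276 bp downstream of the nearest TSS and 666 bp downstream of the canonical one. It had no RBPJ word within 100 bp. The nearest RBPJ summit to CTBP1, 96.7 kb away, lay outside its window and 158 bp from a TSS of UVSSA.

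The demethylase genes differed in whether peaks were found. KDM1B (ENSG00000165097, chr6:18155560-18224085, plus strand) had a shared peak on its TSS. RBPJ at chr6:18155425-18155828 had a fold of 7.82 (rank 88 of 2926) and a -log10 q of 10.7, with the summit 3 bp downstream of a TSS in the untranslated exon. L3MBTL3 at chr6:18155510-18155593 had a fold of 5.96 (rank 153 of 444) and a -log10 q of 4.68, with the summit 10 bp upstream. The L3MBTL3 peak lay whole inside the RBPJ peak and the summits were 13 bp apart. None of the RBPJ words was within 100 bp of either summit. A second RBPJ peak, chr6:18155229-18155361 (fold 5.97, -log10 q 5.48), had its summit 240 bp upstream of KDM1B and 12 bp from a TSS of TPMT, a thiopurine methyltransferase gene transcribed the other way. KDM1B and TPMT start 252 bp apart, so these peaks cannot be given to KDM1B alone. KDM1A (ENSG00000004487, chr1:23345936-23410182, plus strand) had no summit of either protein in a window of 159.6 kb. The nearest RBPJ summit was 110 kb away (fold 6.89), 11.2 kb from a TSS of LUZP1, and the nearest L3MBTL3 summit was 3374 kb away. The observed over expected CpG ratio round the canonical TSS was 0.990 at KDM1A and 0.914 at KDM1B, so both promoters were CpG-rich. The absence of a peak says that none passed the caller's threshold at this depth, not that nothing was bound.

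Of the demethylase partners, RCOR1 had the strongest RBPJ peak of the 9 genes. RCOR1 (ENSG00000089902, chr14:103058986-103196898, plus strand) has 1 annotated protein-coding TSS. Upstream of it, the peak chr14:103058269-103058571 had a fold of 8.59 (rank 50 of 2926), a -log10 q of 11.1 and its summit 669 bp from the TSS. The peak chr14:103058679-103058799 had a fold of 5.29 and a -log10 q of 3.24, with its summit 283 bp from the TSS. The stronger one held 3 copies of the core word and no high-affinity word, and the weaker one held neither within 100 bp of its summit. RCOR3 (ENSG00000117625, chr1:211431719-211489727, plus strand) had a single RBPJ peak, chr1:211432443-211432698, with a fold of 6.64 (rank 243) and a -log10 q of 5.75. Its summit lay in an intron of transcripts that start further upstream, 28 bp upstream of the nearest TSS and 115 bp upstream of the canonical one. No RBPJ word lay within 100 bp. The nearest L3MBTL3 summits were 2208 kb from RCOR1 and 226 kb from RCOR3.

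PHF21A (ENSG00000135365, chr11:45950870-46143005, minus strand), a subunit that binds unmethylated histone tails, had both proteins side by side without overlap. RBPJ peaks lay at chr11:46142883-46142955, in the untranslated exon 55 bp downstream of the canonical TSS, and at chr11:46143109-46143164, 154 bp upstream. Their folds were 4.58 and 5.04, both below the median of the list. The L3MBTL3 peak chr11:46143402-46143492 had its summit 477 bp upstream, with a fold of 5.32 (rank 270 of 444) and a -log10 q of 2.24. So none of the 3 peaks was strong. The nearer RBPJ summit was 323 bp from the L3MBTL3 summit, with 237 bp between the peaks. The upstream RBPJ summit fell within a copy of the core word (capitals in the PHF21A line), and no word lay within 100 bp of the L3MBTL3 summit.

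**Figure D3:**
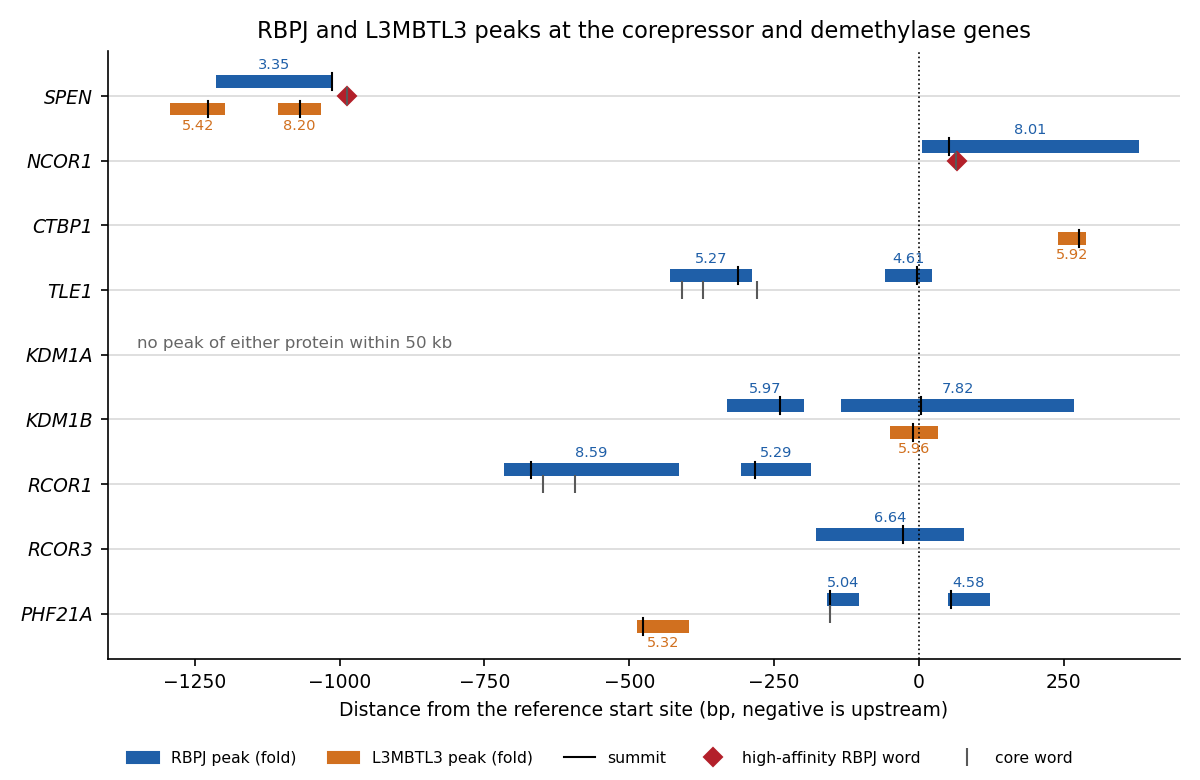
Peaks of RBPJ (blue, above the line) and L3MBTL3 (orange, below) by distance in bp from the TSS nearest to each gene's strongest peak, with the fold beside each, a black tick at each summit and symbols for RBPJ words within 100 bp of a summit. Peaks of both proteins overlap at SPEN, about 1 kb upstream, and at KDM1B, on the TSS, and lie apart at PHF21A.

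Of the 13 RBPJ peaks, 11 were at a promoter (summit within 1 kb of a TSS of any protein-coding gene), against 71.6% of all RBPJ peaks within 50 kb of a TSS. One of these was the TTC19 promoter, so 10 lay within 1 kb of a TSS of the 9 genes, 7 upstream and 3 downstream of it. Of the 5 L3MBTL3 peaks, 3 were at a promoter, against 87.4%, and the other 2 were the SPEN peaks just past the 1 kb limit. By annotation, 3 RBPJ summits were in a UTR, 1 in an intron and 6 were intergenic, while 2 lay in the non-coding genes SPEN-AS1 and TLE1-DT and 1 in an exon of a non-coding TTC19 transcript. Of the L3MBTL3 summits 1 was in an intron, 2 were intergenic and 2 lay in SPEN-AS1. The member itself was the nearest protein-coding gene for 10 of the 13 RBPJ summits and for all 5 L3MBTL3 summits, the exceptions being the peaks nearest UQCRHL, TTC19 and TPMT.

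Paired RBPJ peaks were common at these promoters. Of the 6 genes with an RBPJ summit within 1 kb, KDM1B, RCOR1, PHF21A and TLE1 had 2, against 18.5% of the 1759 genes with at least 1. The summits of each pair were 243 bp apart at KDM1B, 386 bp at RCOR1, 209 bp at PHF21A and 310 bp at TLE1, with 63 to 230 bp between the peaks. The upstream summit was 12 bp from a TSS of TPMT at KDM1B, and 61 bp from a TSS of TLE1-DT at TLE1. The 18.5% was not limited to promoters shared with another gene. Whether each pair is a single broad region split by the caller was not tested. Of the 13 RBPJ peaks 2 were shared, against 4.37% of all RBPJ peaks, and of the 5 L3MBTL3 peaks 3 were, against 28.6%.

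**Figure D4:**
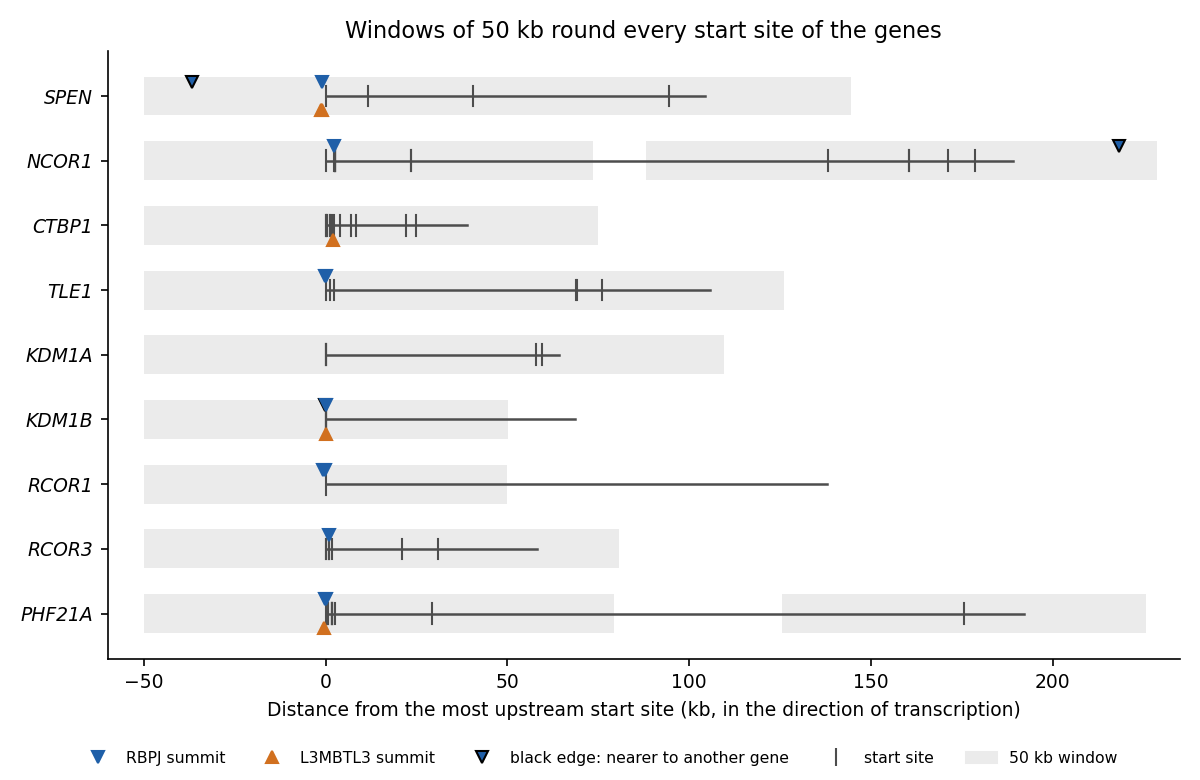
Start sites (ticks), gene body (line) and the windows of 50 kb (grey) of each gene by distance in kb from its most upstream start site, with RBPJ summits above and L3MBTL3 summits below. All summits but 2 lie at the 5′ end of the genes, and black edges mark the 3 RBPJ summits nearer to another gene (UQCRHL, TTC19 and, largely hidden at KDM1B, TPMT).

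Among the peaks of the 9 genes, only those at SPEN and NCOR1 had a high-affinity RBPJ word within 100 bp of a summit. Words were counted per gene only near its peaks, so KDM1A, which has none, was not covered. A high-affinity word was within 100 bp of 2 of the 13 RBPJ summits, against 8.51% of all RBPJ peaks, and within 100 bp of 1 of the 5 L3MBTL3 summits, against 10.1%. Both were CGTGGGAA, and the SPEN copy is the same one counted for both proteins. The core word was near 6 of 13 RBPJ summits (SPEN with 2 peaks, NCOR1, RCOR1, PHF21A and TLE1), against 29.5%, and near 1 of 5 L3MBTL3 summits, against 19.8%. Of the 11 RBPJ peaks at promoters, 4 had the core, against 21.5% of all RBPJ promoter peaks. A high-affinity word was near 1 of the 11, against 5.60%. Windows of 201 bp centred on the 78394 distinct TSS held a high-affinity word in 1.46% and the core in 14.8% of cases. With so few peaks, 1 peak more or less moves these shares by several percentage points. Of the 4 strongest RBPJ peaks by gene, that of NCOR1 held a high-affinity word and that of RCOR1 the core in 3 copies, while those of KDM1B and RCOR3 held none. Of other words, the GC box GGGGCGGGG was within 100 bp of 3 RBPJ summits, at RCOR1 (both peaks) and RCOR3. It was near 21.8% of all RBPJ summits and 29.0% of those at promoters, and in 13.2% of TSS windows. The AP-1 word TGACTCA was near 1, the distal SPEN peak, against 11.2% of all RBPJ peaks and 2.46% of TSS windows. The CCAAT box (CCAAT) was near 5, against 19.5% and 23.2%. None of the 13 held the ETS word CCGGAAGT, the CRE word TGACGTCA, the E-box CACGTG or the TEAD word GGAATG. These were near 3.25%, 1.57%, 6.87% and 13.7% of all RBPJ summits, so 13 peaks are too few to show an absence. At promoters the shares were 4.37%, 2.03%, 7.73% and 7.46%. GC content in these windows had a median of 72.6% (60.2% to 86.6%) in the 13 RBPJ peaks, against 68.7% in all RBPJ peaks and 71.6% in those at promoters.

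Other corepressor and histone-modifying genes had a peak in a smaller share than the 9 genes. The 34 others came from a list of NCOR, deacetylase, RCOR, CTBP, TLE, SIN3, methyltransferase and other genes. Not all of them encode subunits of the complexes of the 9 genes. Both this list and the 9 genes were chosen with earlier results of these data known, so their difference is a description only. Of the 34, 12 had an RBPJ summit within 50 kb (all genes 21.8%) and 6 within 1 kb (17.6%, all genes 8.90%). An L3MBTL3 summit and a shared peak lay within 50 kb of 2 (5.88%, all genes 2.89% and 1.01%). Within 50 kb, 22 had neither, among them HDAC1, HDAC2, CTBP2, TLE2, TLE3, TLE4, SIN3A and CIR1. The RBPJ share of this list within 50 kb, 35.3%, was between those of the 9 genes and of all genes. Its strongest RBPJ peak was 272 bp from a TSS of TBL1X, a subunit of the NCOR complex (fold 7.62), and the related TBL1XR1 had one 11 bp from a TSS (5.70). The HDAC3 peak (6.17) was 77 bp from a TSS of DIAPH1, and 17.7 kb from HDAC3. BEND6, an RBPJ corepressor known from neurons, had 3 RBPJ peaks (4.93 to 5.77) and 2 L3MBTL3 peaks (4.26 and 4.30) within 1 kb, 2 of the RBPJ peaks shared, and its promoter adjoins that of DST. The shared peak near KMT2D, a histone methyltransferase, was 8815 bp away and 228 bp from RHEBL1 (RBPJ fold 4.33, L3MBTL3 fold 5.88).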

How the data were processed

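One RBPJ and 1 L3MBTL3 ChIP-seq library of MDA-MB-231 cells were analysed as the peak lists deposited with them. Per the labels' protocols, single-end reads of 50 cycles had adaptors removed by Trimmomatic, and BWA (0.7.15) placed them on hg19. The submitters' processing notes also list MACS2, a peak caller whose file layout the lists have, and its version, cutoff and control are not stated in the labels. Per the columns deposited by the authors, each peak has a start, end and summit, a fold enrichment (a ratio over local background), a -log10 p and a -log10 q. The deposited score column is the -log10 q on another scale and was not used further. Peak lists give no read counts, so the error of a fold is unknown.

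Distances, overlaps and words were computed with Python 3.11.15, pandas 2.3.3 and pysam 0.24.0 from the GRCh37 genome and GENCODE 44 lifted to it, on chromosomes 1 to 22 and X, and the counting was tested on simulated data with known answers. A TSS was that of any protein-coding transcript, and canonical means Ensembl's canonical transcript. Exact copies of 54 stretches of 50 bases, at the start, summit and end of each of the 18 peaks, were sought in the genome, and each had 1 copy. No statistical test was made. The members, lists and words were chosen with earlier results of these data known. Named genes are all 9 members, the gene nearest each of their peaks, and of the 34 others those with an L3MBTL3 or shared peak and the 5 with the highest RBPJ fold, beside examples without a peak chosen after the values were seen. Of the genes and sequences this rule and the printed stretches would give, 1 gene and 1 stretch are not reported here.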

Additional observations from a re-analysis of the deposited data

How the results depend on the processing

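Of 51 recomputed counts, 37 stayed within 1.5 times the reported one. With summits within 1 kb, 3 L3MBTL3 peaks and 1 gene with a shared peak (KDM1B, 0.516% of all genes) were left. SPEN lay just past that limit. A -log10 q of at least 5 left 5 RBPJ peaks near 4 genes and 1 L3MBTL3 peak near 1 gene (SPEN), and 0 genes with a shared peak (6.17%, 0.840% and 0.197% of all genes), since the RBPJ peak at SPEN and the L3MBTL3 peak at KDM1B fell below it. Folds at or above the list median left 3 L3MBTL3 peaks and 1 gene with a shared peak (0.521% of all genes). Counting summits within 1 kb as shared gave 5 shared RBPJ peaks. With promoters of 2 kb, 5 L3MBTL3 peaks were at one. Inside the peak itself, 1 RBPJ and 0 L3MBTL3 peaks held a high-affinity word, and 0 L3MBTL3 peaks the core. Within 10 kb or 100 kb, with TSS of all transcripts, and with canonical TSS only (a choice made after seeing the data), the members with RBPJ numbered 7 or 8 and with L3MBTL3 4. Over the same settings the shares of all genes ran from 11.3% within 10 kb to 31.0% within 100 kb for RBPJ, and from 1.58% to 4.53% for L3MBTL3. No paired analysis was possible because each antibody has 1 library. Whether depth limits the weak peaks was not tested, since their read counts are unknown.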
